A study of Mus musculus with 6 samples.

Results

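The genes of actin and serum response factor signalling followed here, in the left ventricle of mice that lost the nuclear protein PTIP, are Phactr1, Phactr2, Phactr3, Phactr4, Abra, Srf, Myocd, Ablim1 and Ablim3. They are 9 of the 18193 genes that the arrays measured, and 21 probe sets are tied by the platform annotation to 1 of them alone. A probe set is the group of short array probes that together read 1 transcript region. One further probe set names Phactr1 together with a second gene and was left out. The group was chosen by its place in the pathway and with the differences between knockout and control mice on these same arrays in view. The differences between the groups are therefore given for these 9 genes as a description. Where the text says that 1 of them passed or did not pass a threshold, that too is a description and no test of the group.

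Each of the 6 arrays held RNA from the ventricular apex of 1 female mouse, aged 8 weeks, on a mixed C57B6 and B6129 background. The 3 knockout mice (PTIP KO) carried 1 floxed and 1 null copy of Paxip1, the gene of PTIP, and a transgene in which the cardiac alpha myosin heavy chain promoter drives a tamoxifen-activated Cre recombinase. The 3 littermate controls (PTIP+) carried 1 floxed and 1 wild-type copy, and no Cre transgene is named for them. Both groups received tamoxifen (20 mg/kg), and the labels give both collection 5 days after it and treatment over 5 days. Cre from this promoter acts in cardiomyocytes, so the other cells of the apex keep the floxed allele. The Cre transgene, the null allele and the induced deletion came together and cannot be told apart in this design.

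Actin exists as single molecules and as filaments, and the balance between them reaches the nucleus. Phactr proteins and the myocardin-related factors carry RPEL motifs that hold single actin molecules. When filaments form and this pool shrinks, the myocardin-related factors move into the nucleus and activate serum response factor, while Phactr1 becomes free to bind protein phosphatase 1. Serum response factor binds a DNA element called the CArG box and drives genes of the cytoskeleton, of muscle and of the early response to stimuli. In the heart it works with myocardin, and Abra (also called STARS), an actin-binding protein of striated muscle, promotes this activity. Ablim proteins bind actin filaments, and Ablim3 is known to bind Abra.

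The label check showed Paxip1 lower in the knockout mice on all 4 of its probe sets, at 5.46 to 6.53 against 7.15 to 8.10 in the controls on the log2 scale, and 3 of the 4 passed limma at an adjusted p under 0.05. The arrays correlated with one another at 0.989 to 0.995. Control 1 stood apart on the first principal component, which held 28.9% of the variance, and it had the highest 3'-to-5' actin signal difference, a measure of RNA quality, at 1.85 against 1.17 to 1.64 on the other arrays. Marker genes of cardiomyocytes were bright and close in the groups, with a mean over 10 genes of 13.32 to 13.36 in knockout mice and 13.33 to 13.35 in control mice. In bulk tissue, fewer cells of a type and less RNA per cell cannot be told apart. Of all 45037 probe sets, 86 (0.191%) passed, 30 higher (0.0666%) and 56 lower (0.124%), a split that was 43 higher and 47 lower with each array centred on its median. By the brightest probe set of each gene, 52 of 18193 genes (0.286%) passed, 20 higher (0.11%) and 32 lower (0.176%).

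Of the 9 genes, Phactr3 and Abra passed that threshold, both higher in the knockout mice, and 7 did not pass. Of all genes, 0.11% passed as higher. On the brightest probe set of each gene, the groups did not overlap for Phactr3, Abra and Srf, each higher in the knockout mice, beside 9.44% of all genes with that pattern. Because the comparison helped to choose the genes, nothing is read from these counts. Of the 21 probe sets, 2 passed, both higher, while 0.0666% of all probe sets passed as higher. Another count was of groups without overlap: 5 put all knockout mice above all controls, beside 7.64% of all probe sets, and none put them all below, beside 6.73%. Groups that did not overlap in either direction made up 14.4% of all probe sets, and 9.07% had an unadjusted limma p under 0.05. Over the 9 genes the median log2 difference was 0.02, the same as over all genes, and it ranged from -0.30 for Phactr1 to 2.44 for Phactr3.

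**Figure D1:**
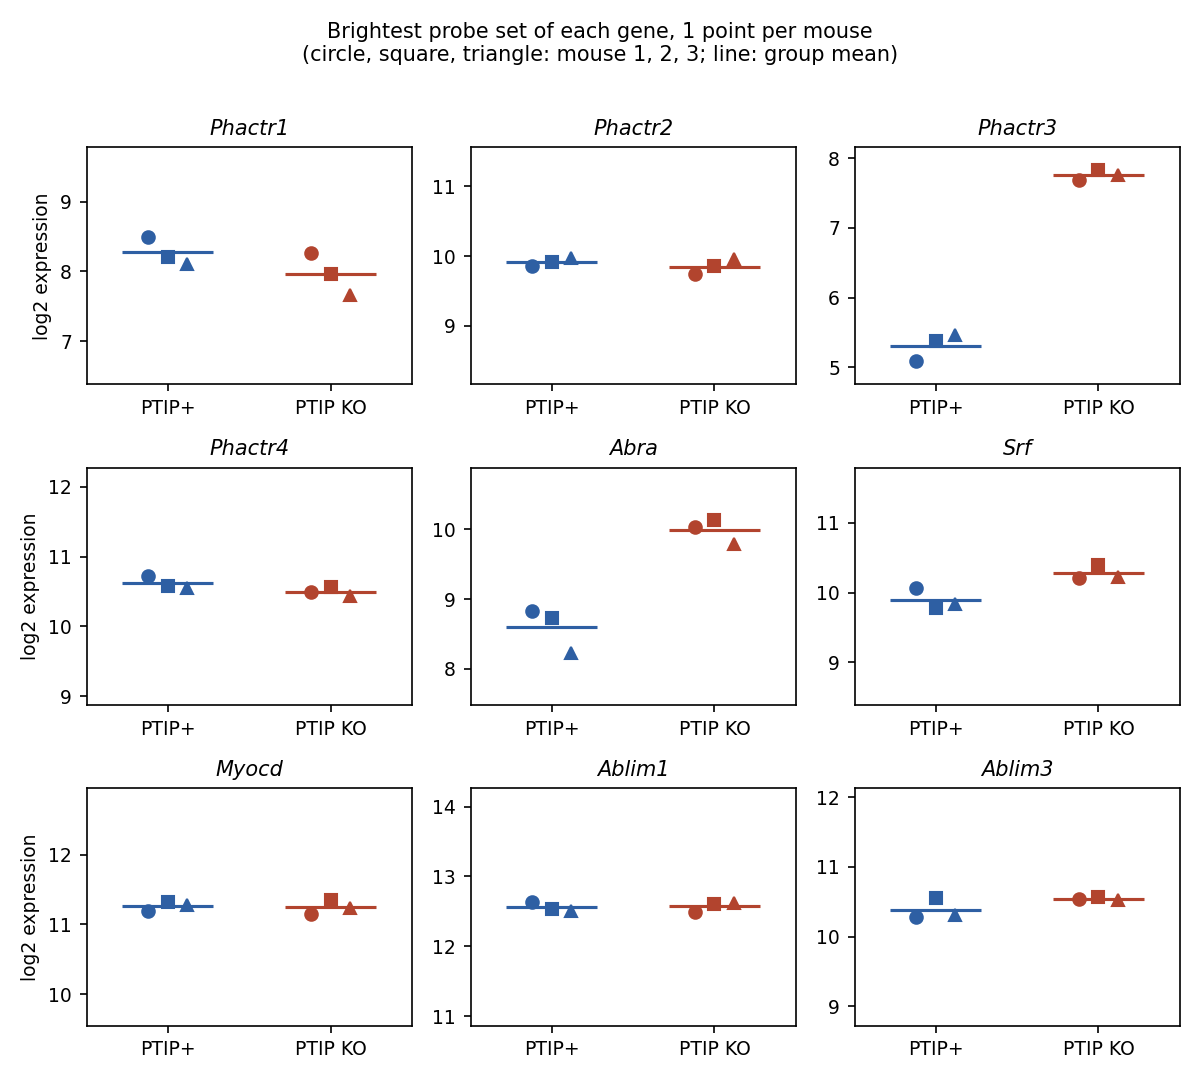
Log2 expression (vertical axis, the same span in each panel) of the brightest probe set of each of the 9 genes, with 1 point per mouse, control mice in blue and knockout mice in red, and a line at each group mean. Phactr3 lies at 7.69 to 7.82 in knockout mice and 5.09 to 5.47 in control mice, Abra at 9.80 to 10.13 and 8.23 to 8.84, and Myocd overlaps between the groups.

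Phactr3, first described as a nuclear scaffold-associated inhibitor of protein phosphatase 1 and best known from the brain, has 1 probe set on the array. It read 7.69, 7.82 and 7.75 in knockout mice 1 to 3 and 5.09, 5.38 and 5.47 in controls 1 to 3. The knockout mice lay within 0.13 of one another, and the groups were separated by far more than the spread in either. The group means were 7.76 ± 0.07 and 5.31 ± 0.20 (SD, n = 3 each), a log2 difference of 2.44 (SE 0.13) and 5.44-fold higher in the knockout mice. This was the fifth largest increase among the 18193 genes. The control values lay near the median level of all probe sets (5.19), so the fold is taken from a dim level in the control mice. Without control 1, which gave the lowest value, the difference was 2.33. The gene no longer passed without knockout 1, knockout 2 or control 2, although its difference was then 2.47, 2.41 and 2.48.

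Markers of nerve and glia were dim, with a mean over 6 genes of 4.48 to 4.59 in knockout mice and 4.33 to 4.72 in control mice. Among them Sox10, a glial transcription factor, read 6.27 in its lowest knockout mouse and 6.13 in its highest control (difference 0.54, limma adjusted p = 0.441) and did not pass. The neuronal markers Snap25, Syt1, Rbfox3 and Tubb3 overlapped between the groups. The part of such cells in the Phactr3 difference was not tested.

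The 3 other Phactr genes overlapped between the groups on their brightest probe sets. Phactr1, the actin-regulated member best known from blood vessels and brain, read 8.27, 7.97 and 7.66 in knockout mice 1 to 3 and 8.49, 8.21 and 8.11 in the controls on its brightest probe set. The groups overlapped and their means differed by -0.30 (SE 0.18), with a difference of -0.15 without knockout 3 and -0.45 without knockout 1. This difference kept its sign in every alternative that was run. The mean of the 4 Phactr1 probe sets differed by -0.02, since 2 of them were higher and 2 lower. That mean weighs dim probe sets like the brightest. The brightest averaged 8.12 over all arrays, and the others 5.06, 2.75 and 2.41, below the median level of all probe sets (5.19). One of the higher pair was dim at 2.78 to 3.10 in the knockout mice against 2.51 to 2.77 in the controls, groups that did not overlap but nearly touched.

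Phactr2, a broadly expressed member, overlapped between the groups on all 3 of its probe sets. Its 2 brighter probe sets differed by -0.07 (SE 0.11) and 0.03 (SE 0.10), and on the second all 6 mice lay between 9.34 and 9.45. Phactr4, which in mouse embryos controls neural tube and enteric nerve development through protein phosphatase 1, read 10.49, 10.57 and 10.43 in knockout mice and 10.72, 10.59 and 10.55 in control mice on its brightest probe set. The groups overlapped by little, and the difference was -0.12 (SE 0.11). Its 2 other probe sets, at 1.85 to 4.42, were dim and differed by -0.05 and -0.06.

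**Figure D2:**
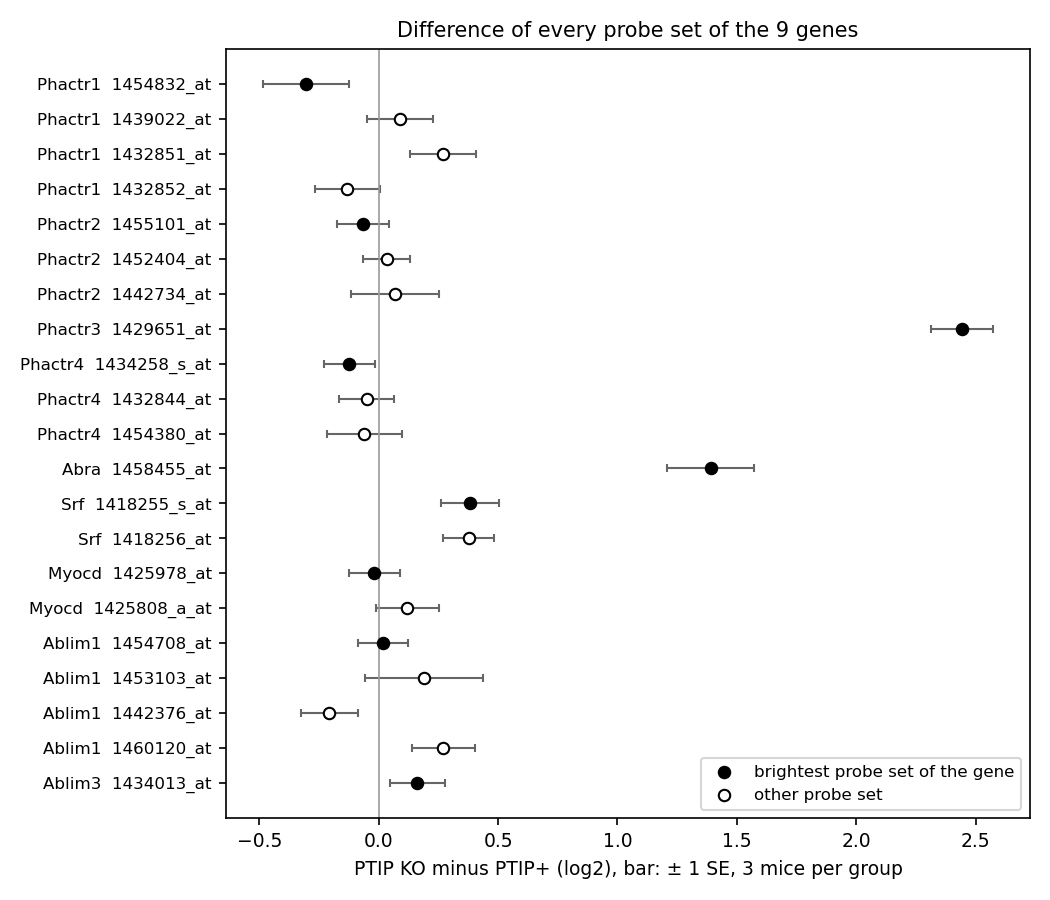
Difference between group means (knockout minus control, log2, horizontal axis) for all 21 probe sets of the 9 genes, with bars of 1 SE and 3 mice per group. Filled points mark the brightest probe set of a gene. Phactr3 (2.44) and Abra (1.39) lie far to the right, both Srf probe sets lie near 0.38, and the others lie between -0.30 and 0.27.

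Abra, which binds actin and promotes the entry of myocardin-related factors into the nucleus, has 1 probe set. It read 10.04, 10.13 and 9.80 in knockout mice 1 to 3 and 8.84, 8.73 and 8.23 in controls 1 to 3. Every knockout mouse lay above every control, and control 3 was the lowest of all. The means were 9.99 ± 0.17 and 8.60 ± 0.32 (SD, n = 3 each), a difference of 1.39 (SE 0.18) and 2.62-fold higher, which was the 34th largest increase among all genes. Without control 3 the difference was 1.21, and without control 1 it was 1.51. Abra stopped passing whichever mouse was left out, with differences of 1.21 to 1.51.

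Abra is abundant in skeletal muscle, so markers of that tissue were set beside it. Their mean over 8 genes was 4.45 to 4.56 in knockout mice and 4.44 to 5.05 in control mice, and the fast myosin genes Myh1, Myh2 and Myh4 lay between 2.18 and 3.49 on all arrays. Tnni2, a fast skeletal troponin gene, differed by -1.04 (limma adjusted p = 0.182) and was lower in every knockout mouse. The mean over 6 atrial markers was 7.32 to 7.54 in knockout mice and 6.98 to 7.90 in control mice, so that it overlapped. Among them Tbx5, a cardiac T-box factor, read 10.15 to 10.26 against 9.62 to 9.82 without overlap (difference 0.52, SE 0.11, limma adjusted p = 0.188). Nppa, the natriuretic peptide A gene, overlapped between the groups (difference 0.54, SE 0.19, limma adjusted p = 0.458). Neither passed, and of the 6 atrial markers 2 were higher and 4 lower by sign, with a median difference of -0.03. The part of skeletal or atrial muscle in the Abra difference was not tested.

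Srf encodes serum response factor itself, and both of its probe sets were higher in all 3 knockout mice. On the brighter one the values were 10.21, 10.39 and 10.23 in knockout mice 1 to 3 and 10.06, 9.78 and 9.84 in the controls. On the other they were 8.58, 8.49 and 8.44 against 8.22, 8.07 and 8.09. The lowest knockout value was above the highest control value on both, by less than the differences between the means, which were 0.38 (SE 0.12) and 0.38 (SE 0.11), or 1.30-fold. Neither probe set passed. Both kept their sign in every alternative that was run, between 0.31 and 0.46. Without control 1, the control with the highest Srf on both probe sets, the differences were 0.46 and 0.42.

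The Srf promoter is shown because Srf is itself a known target of serum response factor, through CArG boxes next to its start site. RefSeq promoter windows in mouse build GRCm38.p6, from 250 bases before to 50 bases after a start site, were found for 5 of the 9 genes, Phactr1, Phactr2, Phactr4, Srf and Ablim1. The Srf window, chr17:46556113-46556412 on the minus strand, is printed 5′ to 3′ with both CArG boxes in capitals.

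Srf promoter: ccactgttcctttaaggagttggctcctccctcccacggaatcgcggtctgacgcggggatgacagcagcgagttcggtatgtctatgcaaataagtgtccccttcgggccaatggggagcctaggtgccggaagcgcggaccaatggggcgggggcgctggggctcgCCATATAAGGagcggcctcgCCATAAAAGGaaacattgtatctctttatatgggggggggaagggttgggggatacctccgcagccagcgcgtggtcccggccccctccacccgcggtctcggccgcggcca

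The boxes begin 82 and 62 bases upstream of the start site, with 10 bases between them. A CArG box here is an exact match to the 10-base consensus, which reads the same on both strands. The windows of Phactr1 (3 start sites), Phactr2, Phactr4 and Ablim1 (5 start sites) hold no exact match, which says only that these letters are not in those windows. Over all genes with a window, 488 of 27025 (1.81%) hold at least 1 box.

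Myocd, the cardiac and smooth muscle coactivator of serum response factor, overlapped between the groups. It read 11.15, 11.35 and 11.23 in knockout mice and 11.19, 11.32 and 11.28 in control mice on its brighter probe set. The difference was -0.02 (SE 0.11), with a 95% interval of -0.27 to 0.24. Its second probe set differed by 0.12 (SE 0.13), with control 1 the lowest at 7.58. The differences of Srf and Myocd were not compared by a test.

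The actin-binding LIM proteins overlapped between the groups on all 5 of their probe sets. Ablim1, bright in the ventricle, read 12.49, 12.61 and 12.62 in knockout mice and 12.63, 12.53 and 12.51 in control mice on its brightest probe set, a difference of 0.02 (SE 0.10). Its other 3 probe sets differed by 0.19, -0.21 and 0.27 and thus did not share a sign. On one of them knockout 1 read 8.84 while the other knockout mice read 9.63 and 9.78, and the difference was 0.48 without knockout 1, 0.084 without knockout 2 and 0.0076 without knockout 3. Ablim3, the partner of Abra, read 10.53, 10.56 and 10.53 in knockout mice and 10.28, 10.55 and 10.31 in control mice, a difference of 0.16 (SE 0.11). Control 2 lay inside the knockout range, and without it the difference was 0.25.

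The genes whose pattern over the 6 arrays was most like that of Phactr3 were Pigg, Slc17a7, Prkar1b, Zfp180 and Tspyl4, with Pearson correlations of 0.992 to 0.9965. Their own differences were 0.29, 2.13, 0.48, 0.29 and 0.62, so a high correlation went with a small or a large change. For Phactr1, the member with the lowest difference, the closest gene was Scn4b, a sodium channel beta subunit, with a correlation of 0.995 and a difference of -1.20. It was followed by Tcf7l1, Dbf4, Bora and Cfap300 at 0.971 to 0.981. These genes were the closest of 11074 candidates over only 6 arrays that share 2 groups, and the correlations are a description.

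Around the 9 genes, 104 further genes of the pathway were listed by role, and 101 were measured. With limma adjusted over all probe sets, 0 of 101 passed in either direction, and at an unadjusted p under 0.05 there were 7 higher and 7 lower, beside 9.27% of all genes in either direction. The groups did not overlap for 9 that were higher and 12 that were lower, beside 9.44% and 6.57% of all genes, and 16% in either direction. The median difference was -0.02, against 0.02 over all genes.

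**Figure D3:**
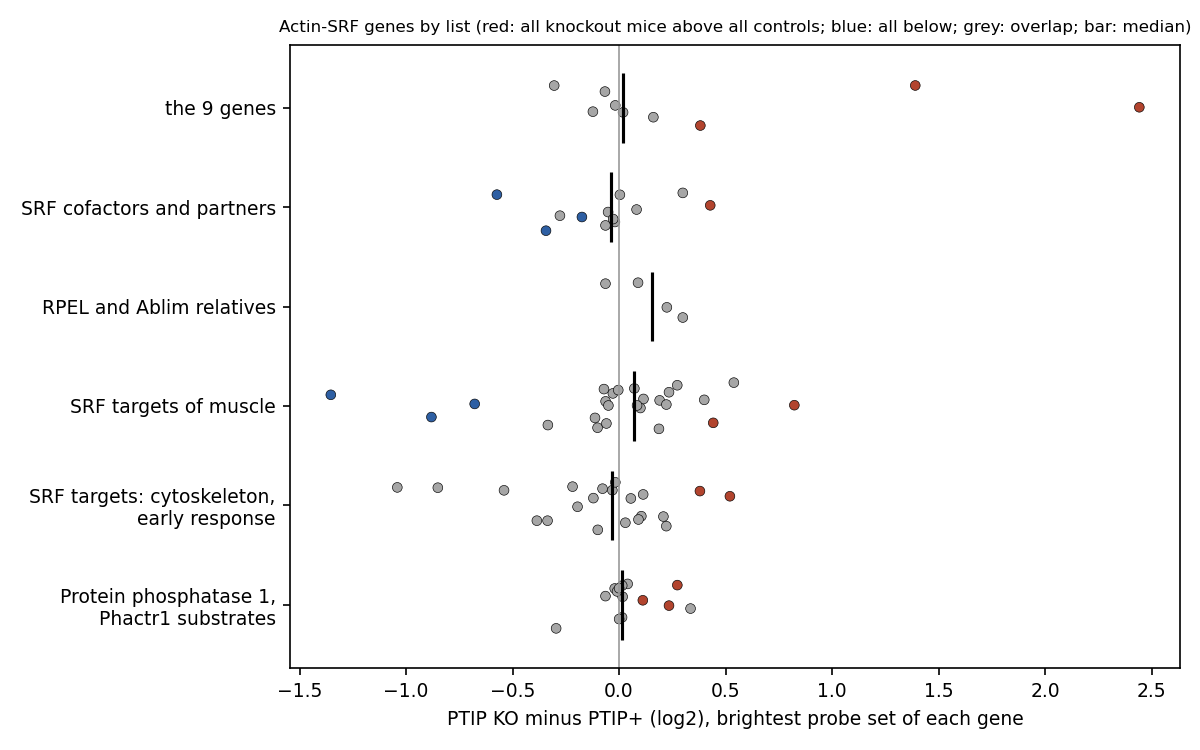
Difference (knockout minus control, log2, horizontal axis) of each gene by list, from its brightest probe set, for the 9 genes and 5 of the 6 pathway lists. Red and blue points are genes whose knockout mice all lie above or all below the controls, and vertical bars are list medians. Phactr3 and Abra lie beyond 1 on the right, and Nppb lies lowest at -1.35 among muscle targets.

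The cofactors and partners of serum response factor had none of 12 that passed with limma. At an unadjusted p under 0.05, 1 was higher and 2 were lower, beside 9.27% of all genes in either direction. Hopx, a homeodomain protein that restrains serum response factor in cardiomyocytes, read 11.82 to 11.94 in knockout mice and 12.21 to 12.29 in control mice. Its difference was -0.34 (SE 0.10, limma adjusted p = 0.360), and its second probe set differed by -0.74 (limma adjusted p = 0.0909). Both probe sets put all 3 knockout mice below all controls.

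Csrp2, a LIM protein of smooth muscle that bridges serum response factor and GATA factors, differed by -0.57 (SE 0.18, limma adjusted p = 0.405). Nkx2-5, the cardiac homeobox factor, differed by 0.43 (SE 0.15, limma adjusted p = 0.459), and Scai, a suppressor of myocardin-related factors, by -0.28 (SE 0.13, limma adjusted p = 0.613). The RPEL proteins outside the 9 genes were Mrtfa, Mrtfb, Arhgap12 and Arhgap32, and all 4 overlapped between the groups. Mrtfa, a myocardin-related factor, read 8.05 to 8.35 in knockout mice and 7.72 to 8.08 in control mice (difference 0.30, limma adjusted p = 0.622). Mrtfb differed by -0.06, Arhgap12 by 0.09 and Arhgap32 by 0.22.

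Muscle genes known as targets of serum response factor had none of 25 that passed. At an unadjusted limma p under 0.05 there were 3 higher and 3 lower, beside 9.27% of all genes in either direction. Acta1, skeletal alpha-actin, read 10.09, 10.31 and 9.45 in knockout mice and 10.76, 11.06 and 10.67 in control mice (difference -0.88, SE 0.23, limma adjusted p = 0.290). Nppb, the natriuretic peptide B gene, read 9.90 to 10.92 against 11.69 to 12.12 (difference -1.35, SE 0.26, limma adjusted p = 0.160).

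Ankrd1, a stretch-responsive protein of the sarcomere, read 11.09 to 11.65 against 11.97 to 12.11 on its brightest probe set (difference -0.68, SE 0.16, limma adjusted p = 0.226). On its second probe set it read 9.86 to 10.49 against 11.28 to 12.16, a difference of -1.56 (limma adjusted p = 0.0889). With the mean of both probe sets it passed, at -1.12 (SE 0.17, limma adjusted p = 0.0393). That p was adjusted over the 18193 genes, fewer tests than the 45037 probe sets behind the other adjusted values. Smtn, a smooth muscle cytoskeletal protein, had the opposite sign, at 10.89 to 10.92 in the knockout mice against 10.30 to 10.61 (difference 0.44, SE 0.12, limma adjusted p = 0.293). Myh7, the slow myosin heavy chain gene, was also higher without overlap, at 10.64 to 10.67 against 9.02 to 10.31 with control 3 the lowest (difference 0.82, limma adjusted p = 0.494), and was named after its values were seen. Of the 25 muscle targets, 13 were higher and 12 lower by sign, with a median of 0.07.

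Targets expressed in smooth muscle did not share the sign of Smtn throughout. The mean over 6 smooth muscle markers was 8.79 to 9.18 in knockout mice and 8.69 to 8.89 in control mice, with knockout 1 the highest, and 5 of the 6 were higher. Acta2, smooth muscle actin, was the exception at -0.33. Tpm2, a tropomyosin gene named after its values were seen, was higher without overlap on 2 of its 4 probe sets. It was higher by as much as 1.47 on one of them (limma adjusted p = 0.266), but differed by 0.19 on its brightest one. The part of smooth muscle cells in these differences was not tested.

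Cytoskeletal and early response targets had none of 21 that passed with limma. At an unadjusted p under 0.05, 2 were higher and 0 lower, beside 9.27% of all genes in either direction. Ccn2, a secreted matricellular protein, read 11.68 to 11.75 in knockout mice and 10.83 to 11.43 in control mice (difference 0.52, SE 0.17, limma adjusted p = 0.404), with control 3 the lowest. Filip1l, a regulator of cell migration, differed by 0.38 (SE 0.14, limma adjusted p = 0.466). The cytoskeletal genes Vcl, which encodes vinculin, Actb and Actg1 differed by -0.03, -0.08 and -0.10 with overlapping groups, and were named after their values were seen.

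The early response factors spread widely among mice of the same group. Egr1 read 11.37, 10.89 and 10.41 in knockout mice 1 to 3 and 11.89, 11.54 and 10.85 in controls 1 to 3 (difference -0.54, SE 0.32, limma adjusted p = 0.704). Egr2 differed by -0.39 (SE 0.19, limma adjusted p = 0.624). Fos, named after its values were seen, read 9.09, 8.95 and 7.42 against 10.43, 10.14 and 8.02, a difference of -1.04 (SE 0.69). On their brightest probe sets, Egr1 and Fos fell in order from mouse 1 to mouse 3 in both groups, and Egr2 in the control mice only. The source of this order was not tested. The groups overlapped for all 3 genes on these probe sets. On the second Egr2 probe set they did not, at 5.16 to 5.63 in knockout mice and 5.65 to 6.15 in control mice (difference -0.45, limma adjusted p = 0.520).

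The CArG box was found in the promoter windows of 13 of the 92 listed genes that have one (14.1%), the 9 genes included, against 1.81% of all genes. The target lists were drawn up from known targets, so this share is not independent of them. Besides Srf, the 13 are Acta1, Actc1, Actg1, Cnn2, Dmd, Egr2, Fhl1, Fhl2, Filip1l, Hopx, Myl9 and Vcl. The boxes of 6 of them are shown, chosen after their values were seen, so nothing is read from the choice. Acta1 had the lowest difference of the 13, and each of the others shares its box with another gene shown. The part of the box in their differences was not tested. Each line gives 50 bases 5′ to 3′ on the gene's strand (GRCm38.p6), with the box in capitals.
Acta1, chr8:123894819-123894868, minus strand: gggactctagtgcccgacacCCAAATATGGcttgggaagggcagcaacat
Actc1, chr2:114052893-114052942, minus strand: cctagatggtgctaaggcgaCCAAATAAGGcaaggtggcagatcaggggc
Hopx, chr5:77115177-77115226, minus strand: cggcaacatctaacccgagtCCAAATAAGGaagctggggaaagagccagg
Filip1l, chr16:57549160-57549209, plus strand: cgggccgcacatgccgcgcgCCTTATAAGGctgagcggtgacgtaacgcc
Cnn2, chr10:79988524-79988573, plus strand: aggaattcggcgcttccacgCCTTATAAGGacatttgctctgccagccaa
Vcl, chr14:20929151-20929200, plus strand: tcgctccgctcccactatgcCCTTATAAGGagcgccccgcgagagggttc

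Actc1, cardiac alpha-actin, and Hopx carry the same box, and their differences were -0.03 with overlapping groups and -0.34 without overlap. Filip1l, Cnn2 and Vcl share another, and their differences were 0.38, 0.21 and -0.03. Of the 13 genes with a box, 5 were higher and 8 lower, with a median of -0.03. The groups did not overlap for 2 that were higher, Srf and Filip1l, beside 9.44% of all genes. They did not overlap for 3 that were lower, Acta1, Hopx and Fhl2, beside 6.57%. Among all 229 measured genes with a box in a window, 0 passed with limma, with 8 higher (3.49%) and 11 lower (4.80%) at an unadjusted p under 0.05. Among the 14223 with a window and no box, 16 higher (0.112%) and 27 lower (0.190%) genes passed, with 786 higher (5.53%) and 516 lower (3.63%) at an unadjusted p under 0.05. The median differences were 0.02 in both.

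**Figure D4:**
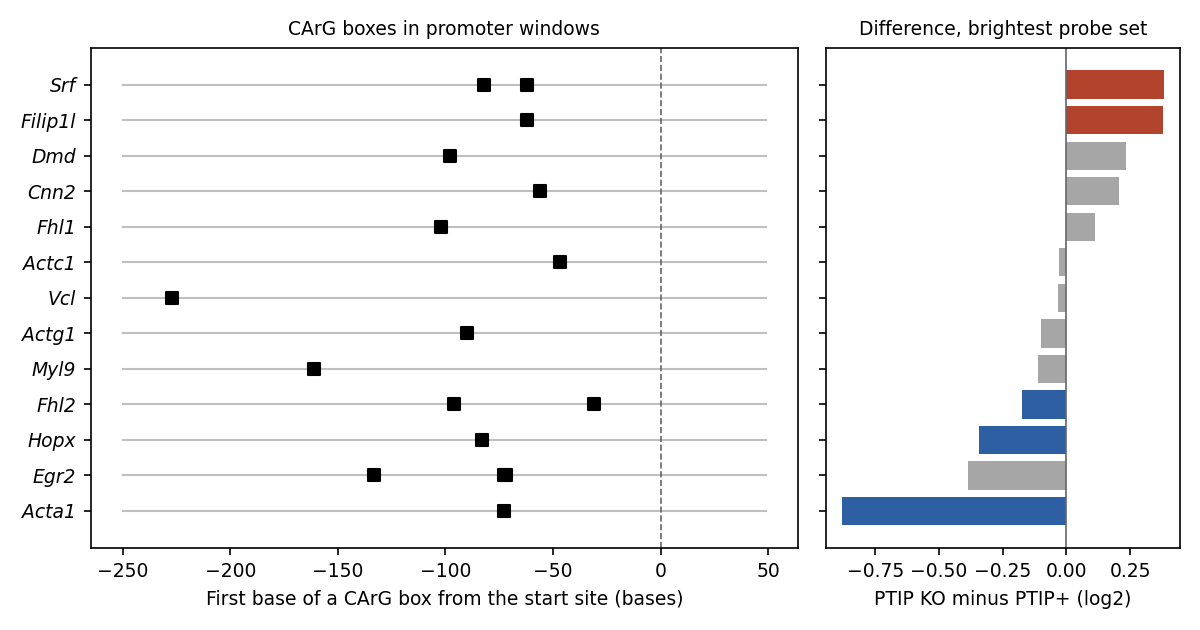
Left, the first base of each CArG box in the promoter windows of 13 genes, as bases from the start site (dashed line, upstream negative). Right, each gene's difference (knockout minus control, log2), in red or blue where the groups do not overlap. Srf with 2 boxes and Filip1l lie at the top at 0.38, and Acta1 lies lowest at -0.88.

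Subunits of protein phosphatase 1, the enzyme that Phactr proteins bind, differed by -0.30 to 0.34. None of 14 genes on the list passed with limma, and none had an unadjusted p under 0.05, beside 9.27% of all genes in either direction. The groups did not overlap for 3 that were higher, Ppp1r12b, Ppp1r7 and Ppp1r9a, beside 9.44% of all genes. They did not overlap for 0 that were lower, beside 6.57%. By sign, 10 were higher and 4 lower, with a median of 0.01. The catalytic subunits Ppp1ca, Ppp1cb and Ppp1cc, on the list but named after their values were seen, differed by -0.06, 0.02 and 0.00 with overlapping groups. Ppp1r12b, a myosin phosphatase targeting subunit of heart, read 11.54 to 11.71 in knockout mice and 11.27 to 11.49 in control mice (difference 0.23, SE 0.11, limma adjusted p = 0.610). Ppp1r7 differed by 0.27 (SE 0.14, limma adjusted p = 0.653), Ppp1r12c by 0.34 (SE 0.19, limma adjusted p = 0.677) and Ppp1r9a by 0.11 (SE 0.11, limma adjusted p = 0.844). The Phactr1 substrates on the list, Sptan1, a spectrin, and Baiap2, an actin regulator at the membrane, differed by 0.01 and -0.02.

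**Figure D5:**
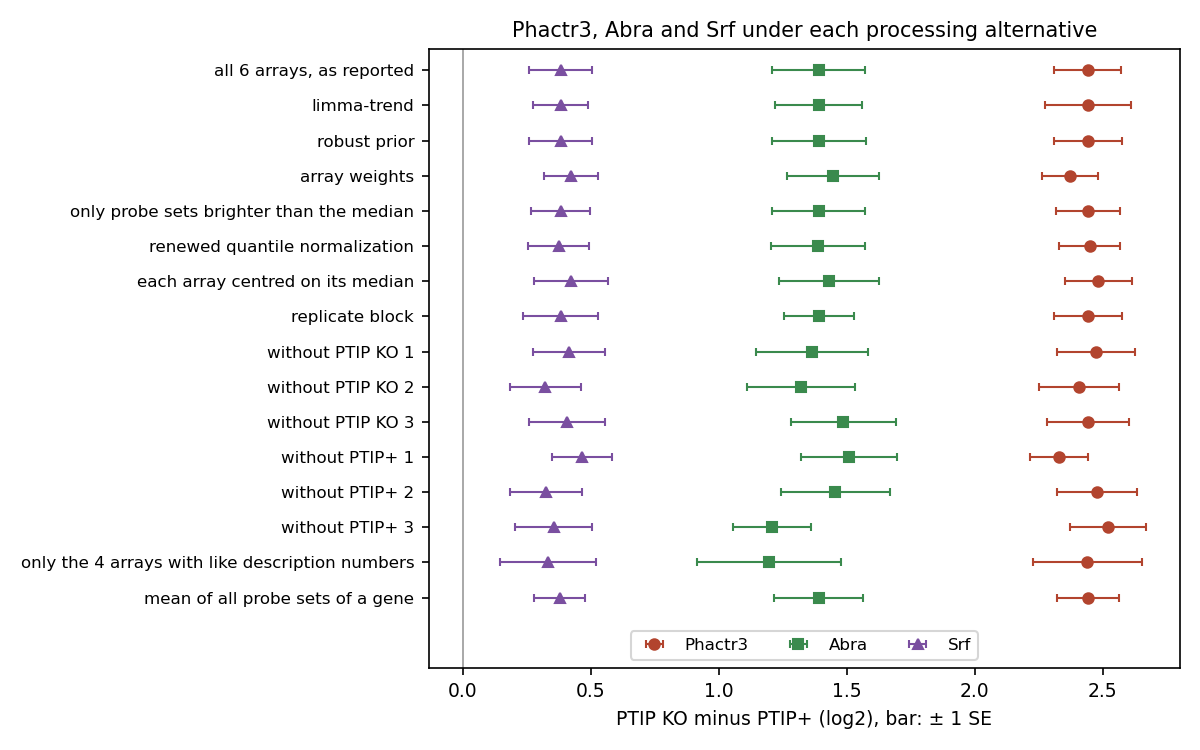
Difference (knockout minus control, log2, horizontal axis) of Phactr3, Abra and the brightest Srf probe set with all 6 arrays and under each of 15 alternatives, with bars of 1 SE. Phactr3 stays between 2.33 and 2.52, Abra between 1.20 and 1.51 and Srf between 0.32 and 0.46.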

How the data were processed

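The deposited values are log2 expression values that the authors made with RMA (background correction, normalisation between arrays and probe summary), per the submitters' processing notes, and the log base was inferred from their range. The RMA version and genome build are not given in the sources used here. RMA evens out the arrays' distributions and compresses changes of dim probe sets.

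After 64 control probe sets were left out, 45037 were tested. Names came from the platform annotation, updated through Entrez identifiers with a RefSeq table (34741 of 34945 matched). A gene is represented by its probe set with the highest mean over 6 arrays. The knockout minus control difference was fitted by limma (lmFit and eBayes, version 3.58.1, R 4.3.3), two-sided, adjusted with Benjamini-Hochberg over all probe sets, threshold 0.05. The fit and the CArG search were tested on simulated data. For arrays, 3 mice per group limit the precision.

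The 9 genes and all lists were chosen with earlier results of these data known. One of the 6 pathway lists enters the total over all lists and is not reported on its own here. Named genes are all 9, Paxip1, the genes of each pathway list that passed or up to 4 with the smallest p, up to 2 per cell type list, and the 5 genes most correlated with the highest and the lowest member. Some genes were named outside this rule with their values in view, among them Tpm2, several neuronal markers and the fast myosin genes. The closing section gives the alternatives: variance trend, robust prior, array weights, a filter on dim probe sets, renewed quantile normalisation, median centring, the replicate block, each mouse left out, 4 arrays with like description numbers, and the mean of a gene's probe sets.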

Additional observations from a re-analysis of the deposited data

How the results depend on the processing

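The number of probe sets that passed was 86 with all 6 arrays, 185 with a variance trend, 51 with a robust prior, 204 with array weights, 0 with the 4 arrays of like description numbers (knockout 3 and all controls, the lone knockout mouse assumed to vary like the controls) and 0 to 21 with 1 mouse left out. At an unadjusted limma p under 0.05, the 4 arrays gave 2348 probe sets, and leaving out knockout 1 or control 2, where 0 passed, gave 3790 and 3532. Lower values were 56 of 86 calls, and 47 of 90 with each array centred on its median. Of the 9 genes, 2 passed with all arrays, 1 with a robust prior, 1 with renewed quantile normalisation, 0 with the 4 arrays and 0 to 1 with 1 mouse left out. Of the 101 pathway genes, 0 passed, and 1 (Ankrd1) with the mean of a gene's probe sets, a fit adjusted over genes.

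The replicate number as a block gave 0 passing probe sets (3392 at an unadjusted p under 0.05) and 0 of the 9 genes. Over all probe sets, same-numbered mice did not deviate together, with correlations of -0.15, -0.08 and -0.01, and 0 of 6 arrays correlated best with their own number. Some early response genes, picked after their values were seen, did share an order on their brightest probe sets. Egr1, Fos, Fosb, Ier2 and Junb fell in order from mouse 1 to mouse 3 in both groups, and Egr2 and Egr3 in the control mice only. The correlations over all probe sets gave no sign that the numbers pair the mice. With 3 mice per group, neither they nor the shared order can settle whether the mice were paired.

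Of the 21 differences, 14 kept their sign throughout, Phactr3, Abra and Srf among them. Signs turned for small differences, and the cause was not tested. With the 4 arrays the second Phactr1 probe set read -0.11, the brightest Phactr2 probe set 0.036 and the dimmest Phactr2 probe set -0.035. With the mean of probe sets Phactr2 read 0.012 and Myocd 0.051, and with centring Myocd read 0.024. With 1 mouse left out, the dimmest Phactr2 probe set ranged from -0.11 to 0.23, the second Phactr4 probe set from -0.12 to 0.011, the dimmest Phactr4 probe set from -0.20 to 0.032, the brighter Myocd probe set from -0.070 to 0.029 and the brightest Ablim1 probe set from -0.0050 to 0.059.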

Other observations

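Macrophage markers lay lower in the knockout mice. The mean over 6 genes was 8.24 to 8.63 in the knockout mice and 8.75 to 8.89 in the controls, and all 6 were lower. With limma 0 passed, and 4 had an unadjusted p under 0.05, beside 9.27% of all genes in either direction. Mrc1, the mannose receptor, differed by -0.51 (limma adjusted p = 0.288) and Cd163, a scavenger receptor, by -0.38 (limma adjusted p = 0.381). Fibroblast markers (7 genes) and endothelial markers (6 genes) had mean differences of -0.01 and 0.03 with overlapping groups.

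Mesothelial markers differed more among mice of the same group than any other list of cell type markers compared here. The mean over 5 genes was 6.27, 5.24 and 7.59 in knockout mice 1 to 3 and 7.45, 7.43 and 6.41 in controls 1 to 3. Wt1 and Msln, named by the rule for cell type lists, differed by -0.44 and -0.81, and neither passed. The part of these cells in the differences of the 9 genes was not tested. The 3 measured adipocyte markers had a mean difference of 0.25 with overlapping groups, and the 2 erythroid markers one of -0.06.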
